A study of Arabidopsis thaliana with 6 samples.

Results

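The transcripts described here stood on the same side of wild type in 2 opposite genotypes: a mutant of the Arabidopsis thaliana gene OCTOPUS and a line that overexpresses it. They were chosen on the measured values. A probe set was taken if its mean over the 6 arrays was at least 4 on the log2 scale, if the means of both lines lay at least 0.5 above or both at least 0.5 below the wild-type mean, and if all 4 line arrays lay at least 0.4 beyond both wild-type arrays. Plastid-encoded genes, PPDK, AT3G22060 and COR15B were left out by name. Of the 12363 probe sets that reached this mean, 214 met the rule, 75 higher and 139 lower in both lines. That is 1.73% of the probe sets, 0.607% higher and 1.12% lower. These shares, and every difference of a line from wild type below, describe the choice and were not tested.

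The RNA came from whole plants and was read on Affymetrix ATH1 arrays, on which a set of short probes reports each transcript. There were 2 arrays of wild type of the Wassilewskija accession (named WS), 2 of the octopus mutant (named DYG25) and 2 of the overexpressor (named 35SDYG25, for the viral 35S promoter, which is active in most plant tissues). All plants grew untreated on MS/2 medium at 20 °C and 70% hygrometry. The labels give no plant age, no accession for either line, no number of independent lines, and do not say whether replicates were separate cultures, so the p-values rest on a spread between samples that may be technical.

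OCTOPUS (OPS) encodes a membrane protein of early phloem cells, where it is needed for the continuous files of sieve elements that carry sugars and signals through the plant. Plants that lack it have gaps in the phloem, and plants with more of it form phloem early. Whole-plant RNA mixes phloem with all other tissues, and in such samples fewer cells of a type and less RNA per cell cannot be told apart.

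The OPS probe set read 2.66 and 2.47 on the wild-type arrays, 2.53 and 2.47 on the mutant arrays and 9.52 and 9.83 on those of the overexpressor. The level in the overexpressor went with its label. Wild type and mutant both stood near the 25th percentile of the arrays (2.54 to 2.70), so the probe set does not check the label of the mutant. Arrays of one group correlated at 0.984 to 0.989 over the tested probe sets and arrays of different groups at 0.939 to 0.975. Wild type serves as the reference of both lines, so a deviation of its 2 arrays moves both differences the same way.

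The same steps can be taken from each group in turn. Before genes were left out by name, 227 probe sets (1.84%) had both lines on one side of wild type. With the mutant as the reference, 1028 had both other groups on one side, and with the overexpressor as the reference 394 did. Probe sets with the lines on opposite sides of wild type by the same thresholds numbered 33.

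**Figure D1:**
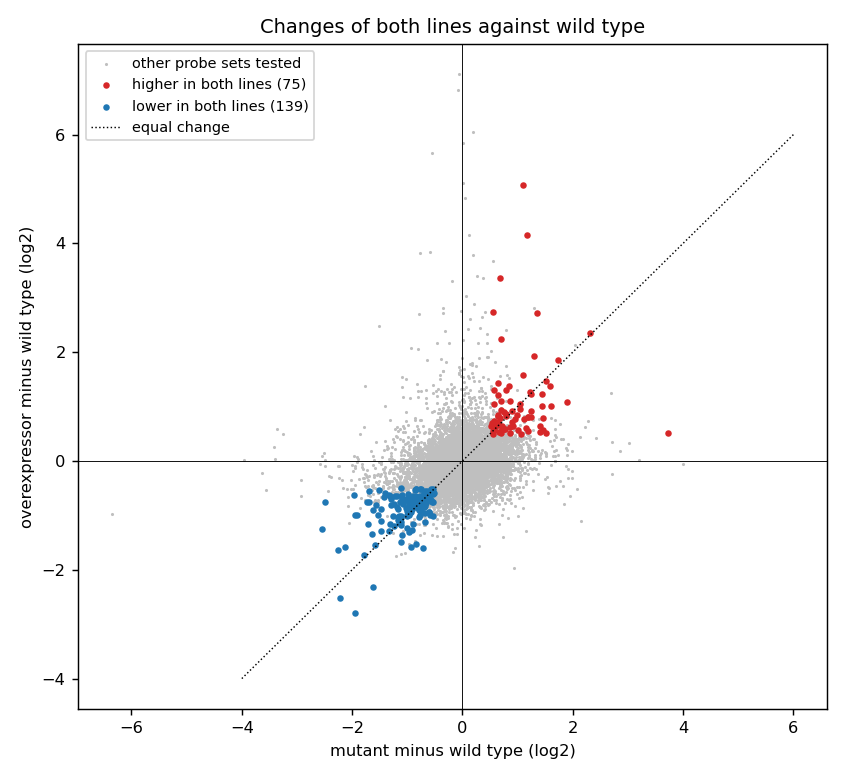
Difference of the mutant (x axis) and of the overexpressor (y axis) from wild type, in log2 units of group means, for the 12363 probe sets tested. Red points are the 75 members higher and blue points the 139 members lower in both lines, and the dotted line marks equal change. Most members lie near that line. A few red points sit far above it, and the red point furthest below it has an overexpressor minus mutant difference of -3.215.

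Of the 214 members, 112 name 1 gene, 8 name several and 94 are not listed in the platform table, so the named genes below are about as many as the unnamed. Among the higher members the median difference from wild type was 0.87 in the mutant and 0.81 in the overexpressor. Among the lower members it was -0.97 and -0.81. Over all tested probe sets the medians were -0.01 and -0.04. A difference of at least 1 log2 unit, which is at least 2-fold, was reached in both lines by 43 members, 16 higher and 27 lower. Some members reached the mean of 4 only through the side that read higher. Wild-type means went down to 3.325 among the higher members. Among the lower members, means went down to 3.63 in the mutant and 3.455 in the overexpressor. The array medians were 4.40 to 4.48, so some of the differences rest on low readings.

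Members are grouped below by the known roles of their products, and these groups were formed after the values were seen. The tested genes of each role were not counted, so the numbers of members in these groups are no shares of a family. Receptor-like kinases, which sense signals at the cell surface, come first. AT4G27300 encodes a receptor-like kinase with a lectin-type outer domain and led the named members. Its arrays read 4.95 and 5.5 on the wild-type arrays, 6.74 and 7.16 on the mutant arrays and 7.33 and 6.84 on those of the overexpressor. The line arrays interleaved, and both lines stood above wild type, the mutant by 1.73 (3.31-fold) and the overexpressor by 1.86 (3.63-fold). The difference between the lines was 0.14, with a 95% confidence interval of -0.47 to 0.74.

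AT1G69730, of the family of wall-associated kinases, which bind pectin on the outside of the cell, read 3.71 and 3.89 on the wild-type arrays, 4.44 and 5.37 on the mutant arrays and 5.39 and 5.39 on those of the overexpressor. Mutant array 2 was level with the overexpressor and mutant array 1 was not. Another lectin-type receptor kinase, AT1G11330, exceeded wild type by 0.64 (mutant) and 1.44 (overexpressor), from low wild-type readings of 3.57 and 3.56. AT5G59680, a receptor kinase with leucine-rich repeats, stood 0.70 and 2.24 above wild type. With these, 4 of the 5 members named here as receptor-like kinases were higher, where 75 of all 214 members were. These 5 were named after their values were seen, so the count says nothing about receptor-like kinases as a family. The other, NCRK, was lower in both lines, by -0.60 and -0.63.

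AT3G28550, a proline-rich extensin-like gene of the cell wall, read 6.64 and 6.16 on the wild-type arrays, 7.42 and 7.08 on the mutant arrays and 8.17 and 7.39 on those of the overexpressor. TBL40 (AT2G31110) belongs to a family whose studied members acetylate wall polysaccharides, and stood 0.79 and 0.84 above wild type. Its relative TBL41 did the opposite and appears among the lower members below.

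Some of the higher members are of defence-type families. AT3G04210, which encodes a protein of the TIR-NBS resistance class, read 3.75 and 3.46 on the wild-type arrays, 4.84 and 4.95 on the mutant arrays and 5.60 and 5.48 on those of the overexpressor. The 3 groups did not overlap. SGT1A, a co-chaperone of resistance proteins, stood 0.65 higher in the mutant and 0.85 in the overexpressor. AT5G48540, a secreted protein with cysteine-rich DUF26 domains, read 5.43 and 5.77 on the wild-type arrays, 6.63 and 6.96 on the mutant arrays and 6.62 and 6.18 on those of the overexpressor.

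AT4G33720 encodes a small secreted protein of the CAP family, to which the pathogenesis-related protein PR-1 belongs. It read 5.75 and 5.73 on the wild-type arrays, 7.13 and 6.53 on the mutant arrays and 10.9 and 10.7 on those of the overexpressor. The mutant stood 2.13-fold above wild type and the overexpressor 33.8-fold. The calmodulin-like gene AT2G41090 followed the same order, with 7.33 and 6.98 on the wild-type arrays, 8.17 and 8.47 on the mutant arrays and 11.2 and 11.4 on those of the overexpressor. In these genes the common direction of the lines is set by the rule, and the sizes of the differences were far apart.

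The remaining named higher members have other roles or none that is known here. AT1G65490 read 6.64 and 5.28 on the wild-type arrays, 7.44 and 7.51 on the mutant arrays and 7.23 and 7.62 on those of the overexpressor. The wild-type arrays lay further apart than all 4 line arrays. AT5G50335 stood 1.22 and 1.28 above wild type, AT4G17245, of a RING-type zinc finger family, 1.04 and 0.95, AT3G05570 1.24 and 0.92, and AT5G15420 0.90 and 0.92. The nuclear helicase gene NIH stood 0.99 and 0.84 above wild type. YLS5, named for yellow-leaf-specific expression, read 6.37 and 6.26 on the wild-type arrays, 6.96 and 6.82 on the mutant arrays and 7.68 and 7.04 on those of the overexpressor. LPR2, a multicopper oxidase that acts in the root response to low phosphate, stood 0.71 and 0.93 above wild type.

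A few higher members act inside the cell. XI-I, a myosin that moves along actin, stood 0.56 and 0.57 above wild type. NET1D, an actin-binding protein, stood 0.53 and 0.69 above it, and the kinesin AT5G66310 stood 0.87 and 0.51 above it. AT1G06720 and AT1G23280, relatives of yeast factors of ribosome assembly, stood 1.06 and 1.19 above wild type in the mutant, and 0.50 and 0.56 above it in the overexpressor.

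**Figure D2:**
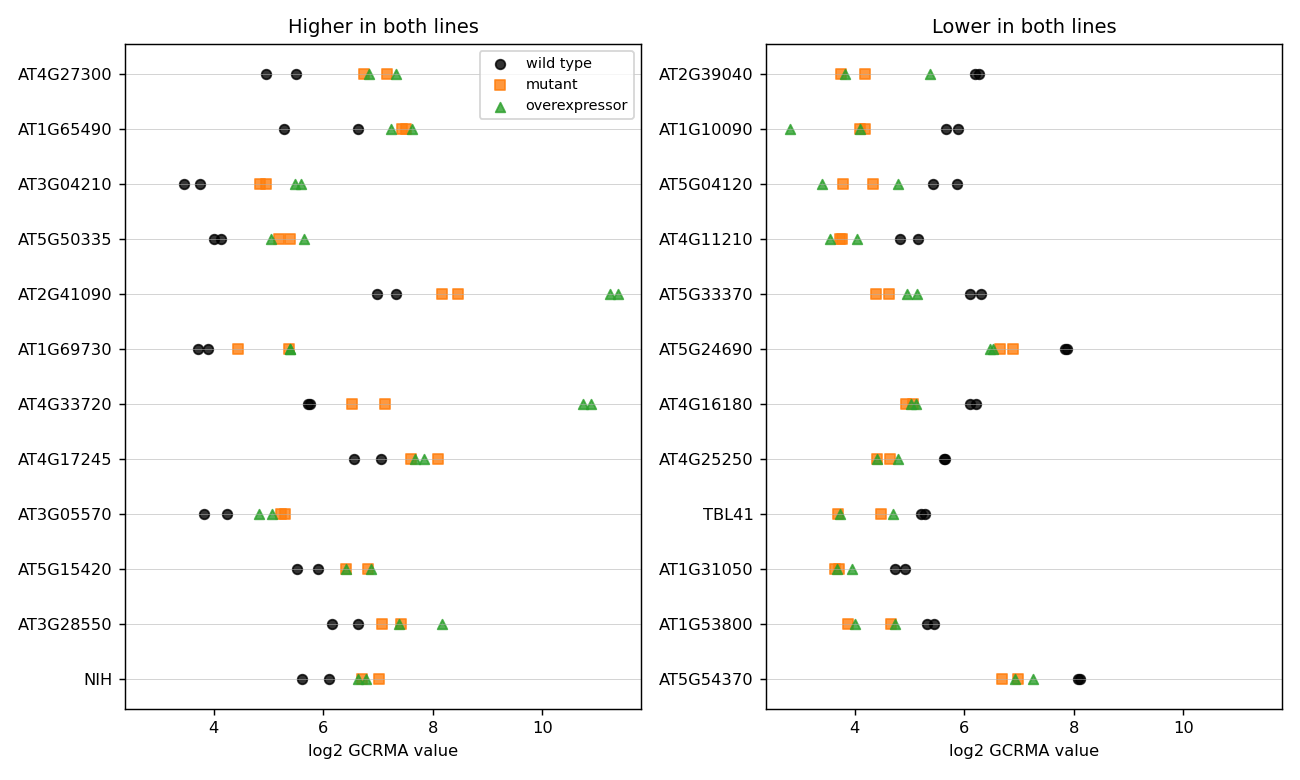
Log2 GCRMA value on each of the 6 arrays for the 12 named members with the largest smaller change on each side, higher members on the left and lower members on the right. Circles are wild type, squares the mutant and triangles the overexpressor. AT2G41090 and AT4G33720 are the 2 genes whose overexpressor arrays lie far from the mutant arrays.

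Among the lower members, 3 were class III peroxidases, secreted enzymes that cross-link or loosen the cell wall. AT2G39040 read 6.19 and 6.27 on the wild-type arrays, 3.74 and 4.19 on the mutant arrays and 5.37 and 3.82 on those of the overexpressor. Overexpressor array 1 lay well above the other line arrays. AT4G26010 read 9.31 and 9.37 on the wild-type arrays, 8.41 and 8.46 on the mutant arrays and 8.91 and 8.49 on those of the overexpressor. AT1G34510 read 4.93 and 4.41 on the wild-type arrays against 3.57 to 3.96 on the line arrays.

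Other lower members also belong to the wall or the surface. AT5G33370, a lipase-type enzyme of the family that builds cutin, read 6.30 and 6.11 on the wild-type arrays, 4.38 and 4.62 on the mutant arrays and 4.96 and 5.14 on those of the overexpressor. The lines stood -1.71 and -1.16 from wild type. The pectin methylesterase inhibitor AT4G25250 read 5.64 and 5.62 on the wild-type arrays, 4.4 and 4.64 on the mutant arrays and 4.78 and 4.4 on those of the overexpressor. TBL41 stood at -1.16 and -1.03, AT4G11210, of the dirigent family that guides the coupling of lignin-type units, at -1.25 and -1.20, and sks15, a relative of the surface protein SKU5, at -0.78 and -1.03. The mutant and overexpressor means of TBL41 (4.085 and 4.215) and AT4G11210 (3.74 and 3.79) lay below the array medians.

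The sugar-binding lectins EULS3 and AT1G52070 stood lower in both lines, EULS3 by the same -0.93 in each. EULS3 lies next to the peroxidase gene AT2G39040 on chromosome 2, and these were the only adjacent protein-coding genes among the members naming 1 gene. AT4G25780, of the CAP family, read 8.02 and 7.72 on the wild-type arrays, 6.92 and 6.99 on the mutant arrays and 7.15 and 7.13 on those of the overexpressor. It stood lower in both lines, whereas its relative AT4G33720 stood higher in both.

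AT1G10090, of a family of membrane proteins named for early response to dehydration, read 5.88 and 5.66 on the wild-type arrays, 4.18 and 4.1 on the mutant arrays and 4.1 and 2.81 on those of the overexpressor. AT5G04120, of the phosphoglycerate mutase family, read 5.87 and 5.42 on the wild-type arrays, 3.78 and 4.33 on the mutant arrays and 4.79 and 3.40 on those of the overexpressor. In both genes overexpressor array 2 was the lowest of all 6. AT5G24690 stood at -1.09 and -1.37, AT4G16180 at -1.16 and -1.08, the bHLH-type gene AT1G31050 at -1.16 and -1.02, AT1G53800 at -1.12 and -1.02 and AT5G54370 at -1.27 and -1.01.

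Proteins of the chloroplast that are encoded in the nucleus were among the lower members too. FZL, which shapes the inner membranes of chloroplasts, stood at -0.84 and -0.67. The chloroplast RNA-binding protein gene AT2G37220 read 11.2 and 11.1 on the wild-type arrays, 10.2 and 10.4 on the mutant arrays and 10.6 and 10.6 on those of the overexpressor. AT1G51110, of the plastid fibrillin family, stood at -0.75 and -0.52. TON1B, which organises the microtubules that mark the division plane, stood at -0.61 and -0.95.

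The values just inside and outside the thresholds were close together. On the higher side AT1G06720 and AT4G26190 had a smaller change of 0.50 and 0.51, while AT1G48160 and AT1G28060 missed with 0.49 and 0.47 in the overexpressor. On the lower side AT5G61340 and AT2G45750 were included at -0.51 in the overexpressor, while AT4G30450 missed at -0.47 there and AT1G23750 at -0.42 in the mutant. Among probe sets naming 1 gene, 43 more on the higher and 96 more on the lower side met the step of the means but not that of the single arrays.

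The rule sets no direct condition on the difference between the overexpressor and the mutant, and that difference was tested. The rule does use the arrays of both lines, so this difference in the members is not independent of the choice. The p-values do not account for that choice. The shares of all probe sets given beside those of the members come from probe sets not selected by the rule, and serve as a description only. With limma and Benjamini-Hochberg adjustment over all 12363 probe sets, 37 of the 214 members (17.3%) differed between the lines at an adjusted p below 0.05, against 18.4% of all probe sets. The share was close to that of all probe sets, but these were not selected in the same way, so no conclusion about the members is drawn from it. Of the higher members 10 were above and 9 below the mutant in the overexpressor. Of the lower members 18 were above the mutant and none was below it, where 8.8% of all probe sets were above and 9.55% below. At an unadjusted p below 0.05 in limma, 5 lower members were below and 27 above, where 18.9% and 15.5% of all probe sets were. The absence of calls below the mutant rested on overexpressor array 1: without it, 8 lower members were called below and 7 above, with 15.6% of all probe sets called in either direction.

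Among members naming 1 gene, the largest differences between the lines were those of AT4G33720, 3.99 higher in the overexpressor than in the mutant (SE 0.196, limma adjusted p = 0.000144), and AT2G41090, 2.99 higher (SE 0.160, adjusted p = 0.000193). AT5G59680 was 1.54 higher (SE 0.202, adjusted p = 0.00469), and lost its call without mutant array 2 (adjusted p = 0.0555). AT4G33720 and AT2G41090 passed under every alternative run. AT3G04210 was 0.65 higher (adjusted p = 0.0398), AT2G36690, of the family of 2-oxoglutarate-dependent oxygenases, 0.73 higher (adjusted p = 0.0337) and AT1G11330 0.80 higher (adjusted p = 0.0155). The call of AT3G04210 was lost when any 1 of the mutant or overexpressor arrays was left out, without a filter on the mean (adjusted p = 0.112) and with the replicate block (0.0688).

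In the opposite sense, 4 named higher members were higher in the mutant than in the overexpressor. AT1G32190 read 4.0 and 3.93 on the wild-type arrays, 5.60 and 5.36 on the mutant arrays and 4.41 and 4.56 on those of the overexpressor, a difference between the lines of -0.995 (SE 0.163, limma adjusted p = 0.00946). AT1G64500, which encodes a glutaredoxin-type protein, differed by -0.89 (SE 0.148, adjusted p = 0.0101), AT1G23280 by -0.63 (adjusted p = 0.0340) and AT1G15290 by -0.54 (adjusted p = 0.0276). The rule and the call together place the overexpressor between wild type and the mutant in each, so this order is no further result. Without mutant array 1 none of the 4 passed (adjusted p from 0.0700 to 0.164), nor without mutant array 2. AT1G23280 also lost its call without any other single array (adjusted p from 0.0524 to 0.0873), without a filter on the mean (0.0978), on the 4 line arrays alone (0.0503) and with the replicate block (0.0596). AT1G15290 also lost its call without overexpressor array 1 (0.0527) or 2 (0.0956) and with the block (0.0566).

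Among lower members AT1G14960, of the Bet v 1-type major latex protein family, read 7.43 and 7.40 on the wild-type arrays, 5.48 and 5.41 on the mutant arrays and 6.85 and 6.73 on those of the overexpressor. It was 1.35 higher in the overexpressor than in the mutant (SE 0.124, limma adjusted p = 0.00152). AT5G38020, a methyltransferase of the family that methylates small acids, was 0.96 higher (SE 0.153, adjusted p = 0.00899). The aspartyl protease-type gene AT4G33490 was 0.94 higher (adjusted p = 0.0111), AT1G78995 0.76 higher (adjusted p = 0.0258) and AT3G45710, of the nitrate and peptide transporter family, 0.69 higher (adjusted p = 0.0405). That the mutant was the line further from wild type in each follows from the rule and the call together. AT5G38020 lost its call without mutant array 1 (adjusted p = 0.0689) or mutant array 2 (0.0717).

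For the other members the test did not separate the lines, which does not show them equal. The 95% interval of the difference held no change for 159 of the 214 members, and its median width to either side was 0.40 log2 units. For AT4G16180 it ran from -0.26 to 0.42, for AT5G24690 from -0.58 to 0.03, for EULS3 from -0.35 to 0.35 and for AT5G04120 from -1.005 to 1.09. The arrays of the lines did not overlap in 107 members, or 50%, against 62.1% of all probe sets. It was 62.7% of the higher and 43.2% of the lower members. The members were selected on these same arrays and all probe sets were not, so these shares are a description only.

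**Figure D3:**
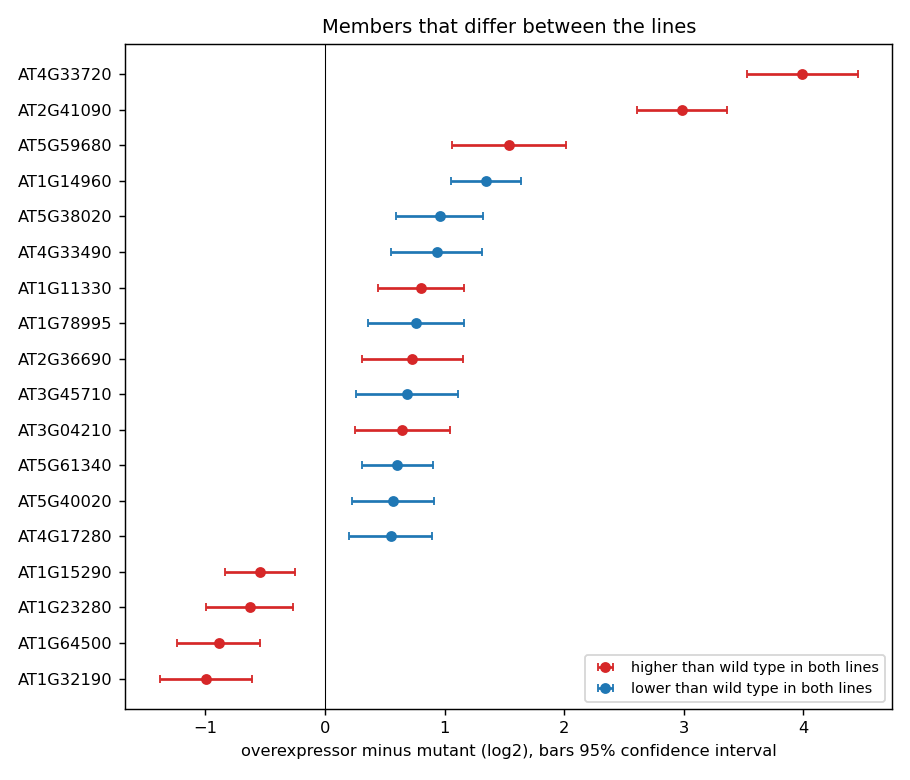
Difference between overexpressor and mutant in log2 units, with its 95% confidence interval from limma, for the 18 members naming 1 gene whose adjusted p was below 0.05. Red marks members above and blue marks members below wild type in both lines. All 8 blue genes are on the right of 0, and AT4G33720 and AT2G41090 lie furthest from it.

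Different probes for the same gene gave a further reading of the members. For 12 members the platform table names a second probe set of the same gene, of which 11 had a mean of at least 4. None of the 12 met the rule. The member probe sets were chosen for large differences on these arrays and the second ones were not, so smaller differences are in part set by the choice. In 10 of the 12 the second probe set had a higher wild-type level than the member probe set. For the 10 lower members with one, the second probe set differed from wild type by -0.83 to 0.10 in the mutant, with a median of -0.17, and by -0.39 to 0.35 in the overexpressor, with a median of 0.00. In 5 of the 10 both differences were below 0.

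AT5G24690 and AT1G10090 kept the direction on their second probe sets. The second probe set of AT5G24690 stood at -0.80 (mutant) and -0.27 (overexpressor), and that of AT1G10090 at -0.59 and -0.39. AT2G37480 stood at -0.83 in the mutant and -0.30 in the overexpressor on its second probe set. By contrast, AT1G31050 stood at -0.05 and 0.06 there, AT2G25760 at 0.10 and 0.20, and AT1G51110 at -0.04 in both lines. The second probe set of AT4G16180 stood at -0.30 and -0.07, with overexpressor array 2 between the wild-type arrays. Of the higher members, TBL40 stood at -0.16 and -0.07 on its second probe set, which lay close to the floor, and AT2G25870 at -0.10 and -0.11.

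For the probe sets picked by the same steps from the mutant, 2 of 8 second probe sets met the rule. In 7 of 8 both differences had the direction of the probe set first picked. From the overexpressor the counts were 0 and 3 of 6. For the members they were 0 and 5 of 11. Which part of each transcript a probe set covers was not analysed here.

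**Figure D4:**
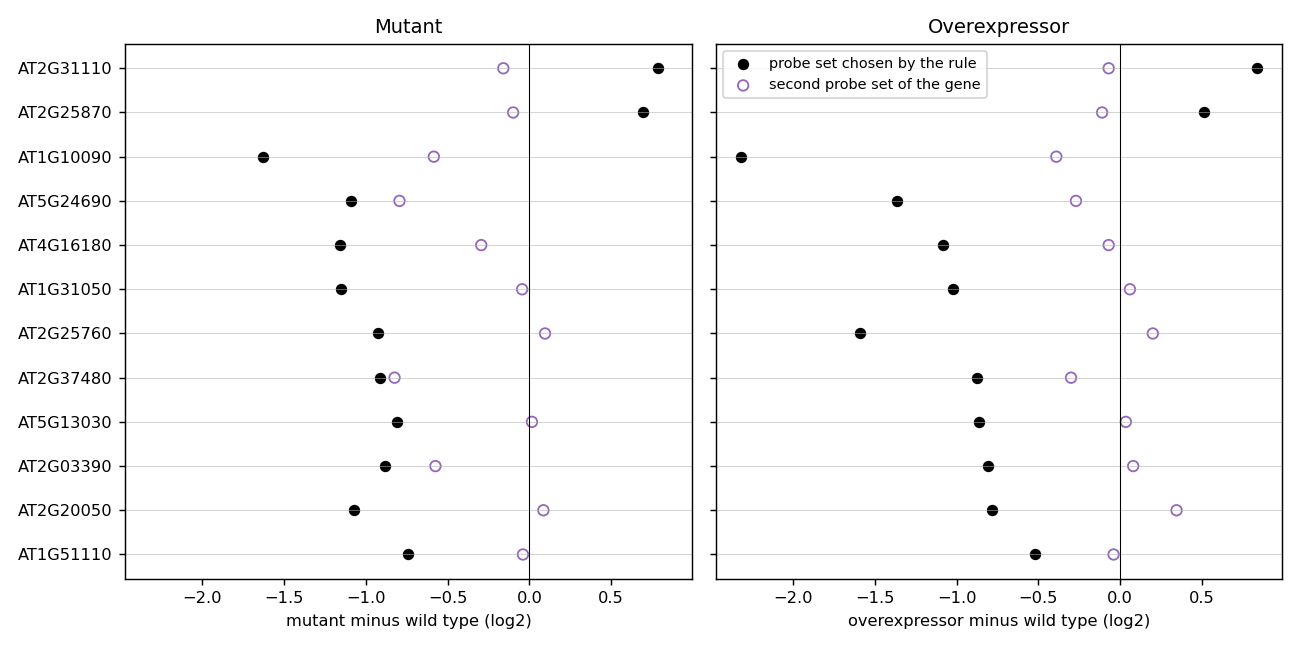
Difference from wild type in log2 units in the mutant (left) and the overexpressor (right) for the 12 genes with a second probe set. Filled circles are the probe sets chosen by the rule and open circles the second probe sets. The open circle lies nearer to 0 than the filled one for all 12 genes in both lines, by the least for AT2G37480 in the mutant. Only the filled probe sets were chosen for their size on these arrays, which in part sets this order.

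A measure of RNA quality moved with the comparison of both lines with wild type. The array carries control probe sets for the 3' and the 5' end of actin, GAPDH and ubiquitin transcripts, and a larger 3' excess means that fewer labelled copies reach the 5' end. The actin excess was 1.04 and 0.93 log2 units in wild type, 1.58 and 1.36 in the mutant and 1.54 and 1.33 in the overexpressor. The ubiquitin difference was -0.64 and -0.68 on the wild-type arrays, -0.25 and -0.42 on the mutant arrays and -0.53 and -0.50 on those of the overexpressor. In 4 of 6 such pairs all 4 line arrays exceeded both wild-type arrays, and in the other actin and GAPDH pairs they overlapped. Among the 4 the sizes differed. The GAPDH pair read -0.01 and -0.04 on the wild-type arrays and 0.06 to 0.13 on the line arrays. The other ubiquitin pair read 1.35 and 1.11 against 1.40 to 1.64. The actin 5' probe set itself read 10.8 and 10.9 on the wild-type arrays against 10.13 to 10.48 on the line arrays. The 25S ribosomal RNA control read 6.42 and 5.86 on the wild-type arrays, 8.03 and 11.2 on the mutant arrays and 6.28 and 6.61 on those of the overexpressor. The part of these controls in the differences of the members was not tested.

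**Figure D5:**
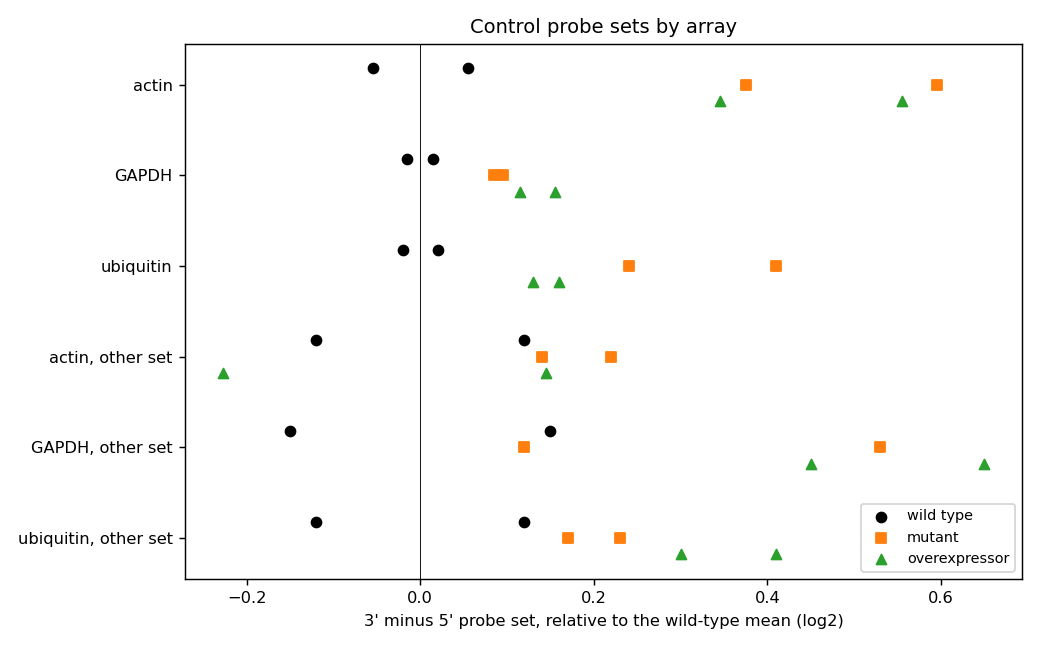
Log2 difference between the 3' and 5' control probe sets of each of 6 pairs, relative to the mean of the wild-type arrays, with 1 point per array. Circles are wild type, squares the mutant and triangles the overexpressor. For actin, GAPDH, ubiquitin and the other ubiquitin set all line arrays lie to the right of both wild-type arrays.

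Few markers of particular organs could be read by name. Of the root markers 3 were tested, and their mean log2 level was 7.89 and 8.02 on the wild-type arrays, 7.63 and 7.84 on the mutant arrays and 7.67 and 7.56 on those of the overexpressor. In this mean all 4 line arrays lay below both wild-type arrays. Of the single genes only EXPA7 did so, with 5.93 on both wild-type arrays and 5.19 to 5.72 on the line arrays. Of the 3, PYK10, a beta-glucosidase of roots, read 12.4 and 12.5 on the wild-type arrays, 12.3 and 12.5 on the mutant arrays and 12.1 and 11.9 on those of the overexpressor, which was below the mutant by limma (adjusted p = 0.0395). FMA, of the stomatal lineage, read 4.57 and 4.56 on the wild-type arrays and between 3.89 and 4.27 on the line arrays. The 3 tested genes of the shoot meristem and cell cycle had a median difference of 0.305 in the mutant and -0.28 in the overexpressor. For the 5 of phloem and sugar transport, OPS among them, it was -0.065 and 0.24. None of these is a member, and their part in the lower members was not tested.

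The lists of pathways and families held 104 tested probe sets, of which 4 were members, or 3.85% against 1.73% of all. The lists were drawn up with earlier results known, and AT4G33720 and AT5G48540 were placed on them knowing those results, so this share says nothing about the lists. In the CAP family 8 genes were tested, of which 1 was called with the overexpressor above the mutant and 2 with it below. Besides the higher AT4G33720 and the lower AT4G25780, AT4G30320 read 5.22 and 5.45 on the wild-type arrays, 4.09 and 4.29 on the mutant arrays and 4.93 and 3.63 on those of the overexpressor, and missed the rule on overexpressor array 1. AT5G66590 stood 0.53 above wild type in the mutant and -0.68 from it in the overexpressor (difference between the lines -1.21, limma adjusted p = 0.00533). In the senescence list YLS5 was the member among 4 tested, and WRKY53 stood at -0.34 in the mutant and 1.65 in the overexpressor. The lists for expansins, xyloglucan enzymes and nuclear photosynthesis, with 11, 7 and 12 tested genes, held no member. With 1.73% of all probe sets as members, lists this short may well hold none, so no conclusion is drawn. XTH18 (-0.545 in the mutant, -0.52 in the overexpressor) and LHCB4.3 (1.125 and 0.53) met the step of the means but not that of the single arrays.

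The replicate arrays of the lines differed in a matched but crossed way in the lower members. In 76 of the 139 (54.7%) mutant array 1 read below mutant array 2 and overexpressor array 2 below overexpressor array 1, against 32.4% of all tested probe sets and 18.7% of the higher members. TBL41 is an example, with 3.69 and 4.48 in the mutant and 4.70 and 3.73 in the overexpressor, and AT1G53800 another, with 3.87 and 4.65 and with 4.73 and 4.0. The wild-type arrays of these 2 genes lay close together, 5.21 and 5.28 for TBL41 and 5.44 and 5.32 for AT1G53800.

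By position, 39 of the 112 members naming 1 gene lay on chromosome 1, which is 34.8% against 25.7% of the tested genes. Chromosome 3 held 11, or 9.82% against 20.5%. These shares are a description of the named members only.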

How the data were processed

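The authors deposited log2 values made with GCRMA, per the submitters' processing notes. GCRMA models background from the probes' base composition, normalises the arrays and combines the probes of a set. Its version and the arrays processed together are not stated in those notes. That values are log2 was judged from their range (1.82 to 14.29). Precision is limited by the number of arrays.

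Gene names come from the platform annotation, matched by gene number to RefSeq of assembly TAIR10.1, which matched all 112 members naming 1 gene. A plastid gene was recognised only where the table lists it. The 64 control probe sets were left out. The overexpressor was compared with the mutant in limma 3.58.1 (R 4.3.3, lmFit, eBayes with a trend, two-sided) on all 6 arrays without covariates, with 3 residual and 3.98 prior degrees of freedom. The test was checked on simulated data. The members, the gene lists and the tests were chosen with earlier results of these data known.

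Named genes are the 12 higher and 12 lower members with the largest smaller change, up to 5 called on each side between the lines, list members, those at the threshold, and others grouped by role after their values were seen. Roles are background knowledge. Promoter motifs were not analysed here, since no promoter sequences were used. The replicate number was also used as a block. Correlations of replicate differences were -0.24 (wild type and mutant), 0.16 (wild type and overexpressor) and -0.31 (mutant and overexpressor), so the numbers as given do not pair the samples. Exchanging the mutant numbers makes all of these positive. Whether the mutant arrays are numbered in the other order was not tested. Alternatives were other filters, scalings, fits and each array left out.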

Additional observations from a re-analysis of the deposited data

How the results depend on the processing

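The rule found 214 probe sets with all arrays. Without a filter on the mean it found 276 (80 higher, 196 lower). Quantile normalization added gave 208, and centring each array on its median 207, with 86 higher and 121 lower, of which 196 and 191 were the same as before. A mean of at least 6 left 102 (41 higher, 61 lower), and steps of 1 and 0.8 left 24 (8 and 16). With 1 array left out the rule has fewer arrays to meet, and gave 217 to 619 probe sets (79 to 278 higher, 138 to 341 lower), the most without wild-type array 2 and 461 without wild-type array 1. Of the original members 190 to 212 were found again in these.

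The 37 members that differed between the lines (17.3%, against 18.4% of all probe sets) became 23 without a filter (10.7% against 6.73%; 6 higher members above and 7 below the mutant, 10 lower members above) and 20 among the 102 members with a mean of at least 6 (19.6% against 25.5%; 3, 3 and 14). With 1 array left out there were 10 to 29: 4 to 8 higher members above and 2 to 8 below the mutant, 3 to 12 lower members above and 0 to 8 below. There were 10 without mutant array 1 (4.67% against 4.07%) and 12 without mutant array 2 (5.61% against 2.94%), so the order of these shares depended on the setting. Among lower members, 1 was called below the mutant with each array centred on its median, and 1 with the mutant numbers exchanged in the block. The replicate block gave 26 members (12.1% against 12.8%), with 7, 6, 13 and 0, and the exchanged numbers, added after seeing the data, gave 42 (19.6% against 24.0%). Differences between the lines were followed through the alternatives for AT4G33720, AT2G41090, AT5G59680, AT3G04210, AT1G14960, AT5G38020, AT1G32190, AT1G64500, AT1G23280 and AT1G15290. None of these changed direction, and the other named differences were not followed.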

Other observations

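Some members without a gene name also stood far from wild type. A higher member read 3.65 and 3.59 on the wild-type arrays, 7.38 and 7.32 on the mutant arrays and 4.14 and 4.13 on those of the overexpressor. Another read 7.29 and 7.79 on the wild-type arrays, 8.24 and 8.21 on the mutant arrays and 10.7 and 11.1 on those of the overexpressor. The higher member with the largest smaller change read 4.66 and 5.42 on the wild-type arrays, 8.81 and 5.91 on the mutant arrays and 6.24 and 8.55 on those of the overexpressor. A lower member with high signal read 12.1 and 12.2 on the wild-type arrays, 10.6 and 10.4 on the mutant arrays and 11.6 and 11.7 on those of the overexpressor. Of the 214 members, 12 are printed to more than 2 decimals on some arrays. In 4 of them this holds for arrays of the overexpressor and also for arrays of wild type or the mutant. The named members AT1G69730, AT1G65490, LPR2, AT2G39040 and AT1G52070 are among the 12.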
